A study of Homo sapiens with 8 samples.

Results

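The genes of lipid and cholesterol synthesis described here are SREBF1, SREBF2, INSIG1, ACLY, ACACA, FASN, ELOVL6 and SCD. The acetylation of histone H3 at lysine 27 (H3K27ac), a mark of active promoters and enhancers, was followed around them in A549, a line of human lung adenocarcinoma cells in which a KEAP1 mutation keeps the transcription factor NRF2 persistently active. Peaks from the 6 libraries that shared at least 1 base were joined into merged regions, and those in one of these gene bodies or within 20 kb of it were kept. These were 36 of 49186 merged regions. The libraries were 3 from cells given control siRNA and 3 from cells given NRF2 siRNA, all harvested 48 h after transfection and described in the study as separate experiments. NRF2 siRNA 28 was used in replicate 1 and NRF2 siRNA 30 in replicates 2 and 3. Both groups carry the KEAP1 mutation, and A549 is 1 line, so the comparison covers a single NRF2-activated background. The lists do not measure how far NRF2 itself was lowered.

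Fatty acids are built in the cytosol from acetyl-CoA. ATP citrate lyase (ACLY) makes acetyl-CoA from citrate, acetyl-CoA carboxylase (ACACA) turns it into malonyl-CoA, and fatty acid synthase (FASN) joins these units into palmitate, which ELOVL6 lengthens and stearoyl-CoA desaturase (SCD) makes monounsaturated. The sterol regulatory element-binding proteins encoded by SREBF1 and SREBF2 switch these genes and the cholesterol pathway on when sterols are scarce, while INSIG1 holds their precursors in the endoplasmic reticulum when sterols are plentiful. NRF2 binds antioxidant response elements and is best known for detoxifying, glutathione and NADPH-producing genes, and it has also been described as a repressor of lipid synthesis in liver.

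Sequences at the starts were searched for short letter patterns of known control elements. The windows span 250 bases before to 50 bases after the start of the canonical transcript (the first base of that transcript counts as 0), on the gene's strand, in GRCh37. Capitals mark the sterol regulatory element core TCACNCCAC, the NF-Y box CCAAT, the E-box CACGTG or the antioxidant response element core TGACNNNGC, searched on both strands, so that ATTGG is a CCAAT on the other strand. The SREBF2 window is shown as an example of a start with the sterol core. ACLY is shown because its start region had the largest positive score change of the members. ACACA is shown because the region at its canonical start had among the largest negative ones.
SREBF2, chr22:42228859-42229158, plus strand: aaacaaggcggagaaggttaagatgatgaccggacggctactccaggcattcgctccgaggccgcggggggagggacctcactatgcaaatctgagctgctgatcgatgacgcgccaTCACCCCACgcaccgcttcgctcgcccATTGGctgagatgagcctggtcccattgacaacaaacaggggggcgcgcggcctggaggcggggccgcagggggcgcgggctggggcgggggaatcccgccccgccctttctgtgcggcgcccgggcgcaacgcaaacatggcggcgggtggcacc
ACLY, chr17:40075155-40075454, minus strand: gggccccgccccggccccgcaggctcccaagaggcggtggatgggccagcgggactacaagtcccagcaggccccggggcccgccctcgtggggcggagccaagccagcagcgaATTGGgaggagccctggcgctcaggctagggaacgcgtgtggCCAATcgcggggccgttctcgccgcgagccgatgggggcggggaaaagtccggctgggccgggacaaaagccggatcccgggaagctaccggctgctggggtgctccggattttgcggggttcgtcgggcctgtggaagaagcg
ACACA, chr17:35766878-35767177, minus strand: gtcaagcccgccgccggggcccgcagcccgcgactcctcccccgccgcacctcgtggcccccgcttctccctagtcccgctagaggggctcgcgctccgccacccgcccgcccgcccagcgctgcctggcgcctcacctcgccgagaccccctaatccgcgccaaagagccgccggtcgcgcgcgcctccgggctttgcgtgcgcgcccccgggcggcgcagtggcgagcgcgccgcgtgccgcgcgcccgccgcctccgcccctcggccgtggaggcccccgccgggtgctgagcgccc

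The sterol core lay at -133 to -125 in SREBF2, with a CCAAT box downstream of it at -106. Among 19515 promoters of coding genes, 1.22% held the sterol core, 36% CCAAT, 8.76% the E-box and 14% the antioxidant core. INSIG1 held a CCAAT box and an E-box, ACLY and SCD held 2 CCAAT boxes each, and the canonical starts of SREBF1, ACACA and ELOVL6 held no match. None of these canonical windows held a whole antioxidant core, and an ACACA match given below crosses the upstream edge of its window. A match describes letters and is not a site of binding.

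Within the wider regions the antioxidant core was about as frequent as elsewhere. The 28 member regions that could be tested held 57 matches in 151 kb, or 0.376 per kb, against 0.391 per kb over the 32649 tested regions with sequence in the reference, and 75% of the 28 had at least 1 match against 63.7%. Of the regions that hold a coding start of a member, ACACA region 1 and ACLY region 1 had the largest negative score changes. Each held a single match, given with 10 bases on each side.
ACACA region 1, chr17:35767164-35767192, plus strand: gcggcgggctTGACGCGGCaggctggcgg
ACLY region 1, chr17:40086521-40086549, minus strand: agacttgggcTGACTTCGCtcctgtcact

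Each level below is a percentile, the share of a library's peaks with a fold enrichment no higher than that of the strongest peak in the region. For tests, each library's regions were ranked by that fold and the ranks converted to normal scores, keeping the regions with a peak in 3 or more libraries, so a change is given in score units as NRF2 siRNA minus control, ± its SE from limma. Regions not called in a library share its lowest rank. In short lists this tied rank is less extreme, with a score of -0.84 in NRF2 siRNA replicate 1 against -2.15 in control replicate 3, which makes loss of a call weigh less in replicate 1. By the same tie, a region uncalled in both libraries of replicate 1 scores a rise of 0.25 in pair 1 without a peak in either. Overlap of groups is stated for percentiles unless scores are named. Read depth is not given in the lists, and by the read totals that the study states both libraries of replicate 1 were the shallowest. The cells were taken in bulk, so fewer acetylated cells and less acetylation per cell cannot be told apart.

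The lists held 23885 to 41571 peaks, and NRF2 siRNA replicate 1 was the shortest, with 40.1% of tested regions uncalled. A flow cell identifier appears in the peak names of replicates 2 and 3 but not of replicate 1, and replicate 1 is also the pair with siRNA 28 and with the fewest reads, so these cannot be told apart. The starts of the epithelial genes CDH1, KRT8 and KRT18 lay in called regions in 6 of 6 libraries, those of EPCAM and KRT19 in 0, and those of 7 markers of leukocytes, endothelium, fibroblasts and hepatocytes in 0. A list of 9 known NRF2 target genes, among them NQO1, GCLM, GCLC, TXNRD1, SLC7A11, HMOX1, SRXN1 and ME1, had 30 tested regions with a median change of -0.63. Of these, 3 fell and 0 rose by limma (Benjamini-Hochberg adjusted p under 0.05), where 3.39% and 2.01% of all tested regions did.

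No member region passed as a rise after NRF2 knockdown, and none as a fall in the fit that took libraries as unpaired. By limma with Benjamini-Hochberg adjustment at 0.05, 0 of the 28 tested member regions were higher, where 2.01% of all 32673 tested regions were, and 0 were lower, where 3.39% were. With 28 regions, counts of 0 are near both shares and do not set the members apart. At an unadjusted p under 0.05, 5 member regions were lower and 0 higher, or 17.9% of the 28. Over all tested regions 22.5% passed, with falls and rises counted together. No share for falls alone is given, so the 5 lower regions cannot be set against a background of their own direction. With the replicate as a block, 3 of 28 were lower against 6.62% of all, and 0 were higher against 5.72%. The 3 were the shared starts of ACACA and of ACLY and an internal ACACA region. Without NRF2 siRNA replicate 1, that internal region alone passed in the unpaired fit (limma adjusted p = 0.0485).

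More member regions had a lower score than a higher one with NRF2 siRNA. The score was lower with NRF2 siRNA in 19 of 28 regions, with a median change of -0.15 against 0.02 over all tested regions, 48.5% of which were lower. The medians within the 3 pairs of same-numbered libraries were -0.31, -0.26 and -0.17. All 3 pairs were lower in 35.7% of the member regions against 22.9% of all, and all 3 were higher in 7.14% against 28.6%. A region uncalled in both libraries of replicate 1 scores a rise in pair 1, so it cannot be lower in all 3 pairs. How many of all tested regions carry this tie is not given, and it also enters their median. Member regions were more often called in all 6 libraries, 47.2% against 34.2% of all merged regions, so these contrasts are not like for like. The members were called in fewer regions with NRF2 siRNA, 18, 24 and 28 of 36 in replicates 1 to 3 against 27, 28 and 33 with control siRNA, and the lengths of the lists moved alongside in replicates 1 and 3.

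**Figure D1:**
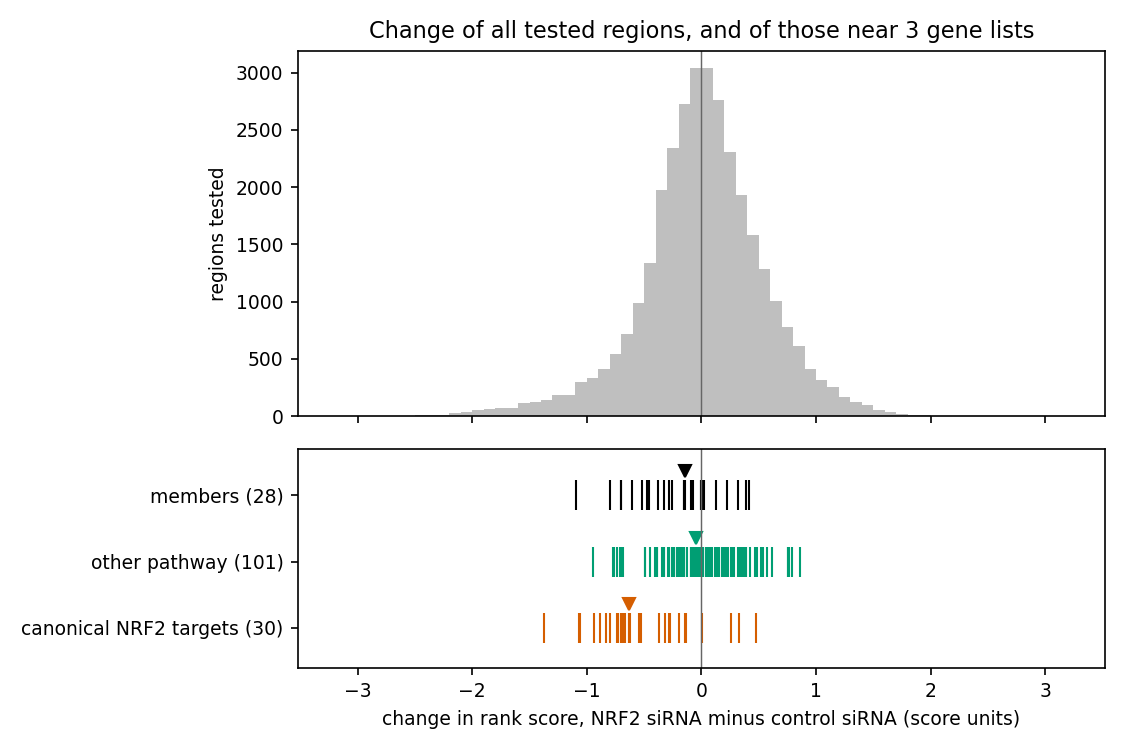
Top, number of tested regions (y axis) by change in rank score, NRF2 siRNA minus control siRNA (x axis, score units, bins of 0.1). Bottom, each tick is 1 tested region near the 8 members (28 regions), 46 other genes of the pathway (101) or 9 canonical NRF2 targets (30), and triangles mark the medians of -0.15, -0.05 and -0.63.

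Of the member regions, 17 were called in all 6 libraries, 47.2% of 36 against 34.2% of all merged regions. In these 17 the percentiles of the groups did not overlap in 4. They were lower with NRF2 siRNA in 3 (ACLY region 1, ACACA region 1 and ELOVL6 region 5), against 11.3% of the 16845 regions called in every library, and higher in 1 (ACLY region 2), against 8.85%. A region called in all 3 control and 0 NRF2 siRNA libraries was found for 1 of the 36 (ACACA region 3), where 2.27% of all merged regions were of this kind, and the reverse was found for 0, where 0.83% were. With 3 libraries a group the smallest p of the exact permutation test is 0.1.

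Most regions at starts ranked high in the control lists. By mean control percentile the order was SREBF1 region 2 (98.5 ± 1.68, SD, n = 3), ACLY region 2 (94.8 ± 1.89), ACACA region 1 (91.7 ± 1.43), SREBF2 region 1 (91.1 ± 2.57), SREBF1 region 4 (89.8 ± 3.33), ACACA region 2 (86.5 ± 7.38), INSIG1 region 2 (86.3 ± 9.65), FASN region 3 (86.1 ± 4.68), SCD region 2 (85.8 ± 1.63), ELOVL6 region 1 (81.1 ± 9.02) and ACLY region 1 (69.9 ± 2.61). Each neighbouring pair in this order had overlapping control values. Regions are numbered along each gene in the direction of transcription.

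**Figure D2:**
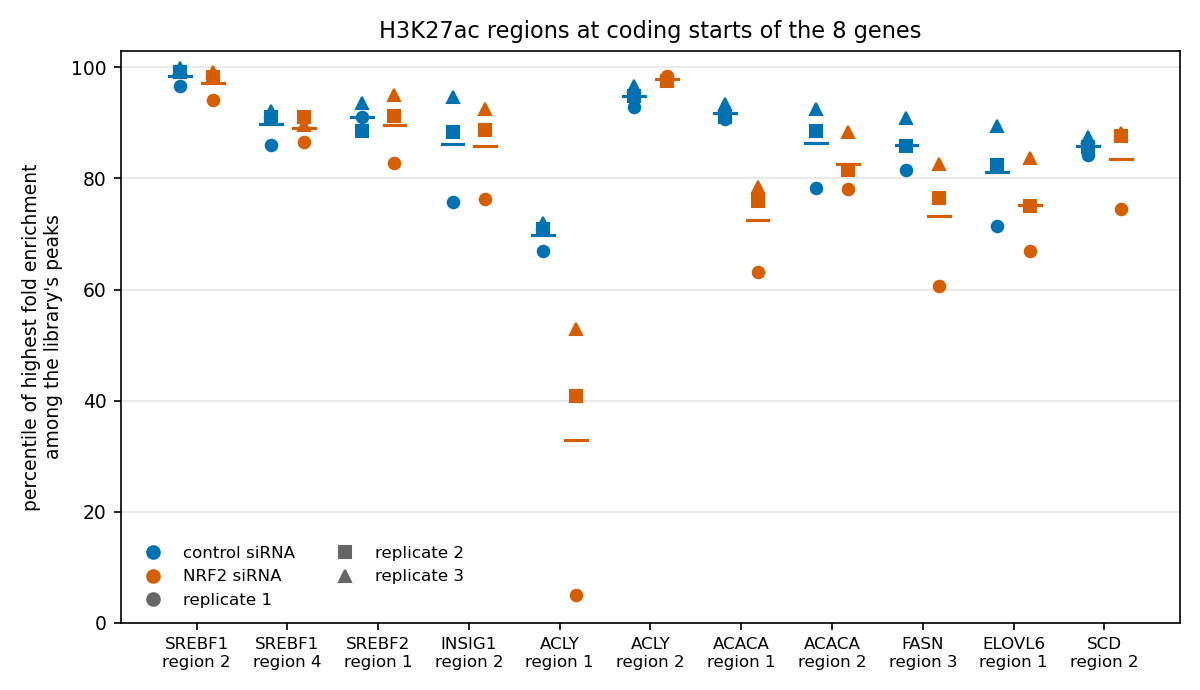
Percentile of the highest fold enrichment among the library's peaks (y axis) for the 11 regions that hold a coding start of a member (x axis), with control siRNA in blue, NRF2 siRNA in orange, replicates as circles, squares and triangles, and bars at group means. The groups separate downwards in ACLY region 1 and ACACA region 1 and upwards in ACLY region 2.

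SREBF1, the regulator with most weight on fatty acid genes, carried the highest-ranked start. Its start region (region 2, chr17:17736788-17746292, 9505 bp) reached percentiles of 96.6, 99.1 and 99.8 in control replicates 1 to 3 and 94.2, 98.3 and 99.3 in NRF2 siRNA replicates 1 to 3. The NRF2 siRNA library was lower in each pair but the groups overlapped, and the change was -0.29 ± 0.28 (SE, limma adjusted p = 0.603). An internal start (region 4, chr17:17720992-17731509) had 86.0, 91.2 and 92.2 with control siRNA and 86.5, 91.0 and 89.6 with NRF2 siRNA. This region had a change of -0.01 ± 0.19 score units, the groups overlapping throughout.

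The other SREBF1 regions were weaker. A region over the last exons and 3′ UTR, which also overlaps RAI1 (region 6, chr17:17714395-17716663), was called in the controls at percentiles of 36.0, 38.01 and 56.2, and with NRF2 siRNA only in replicate 3, at 45.5. Its change of -0.79 ± 0.32 did not pass (limma adjusted p = 0.176), and the called NRF2 siRNA library lay within the control range of percentiles, while the scores did not overlap. An intronic region (region 3), uncalled in both libraries of replicate 1, had a change of -0.26, or -0.51 with pairs 2 and 3 alone. An upstream region in TOM1L2 (region 1) had a change of 0.01. Regions 5 and 7 were called in 2 and 1 control libraries and 0 NRF2 siRNA libraries, too few to test.

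SREBF2, the regulator of cholesterol synthesis and a gene whose start holds the sterol core printed above, had NRF2 siRNA values on both sides of the controls. The start region (region 1, chr22:42227273-42232537) had percentiles of 91.1, 88.5 and 93.6 with control siRNA and 82.7, 91.3 and 95.1 with NRF2 siRNA. Replicate 1 was lower and replicates 2 and 3 were higher with NRF2 siRNA, giving a change of 0.02 ± 0.21 (limma adjusted p = 0.970). Of its intronic regions, region 2 had a change of -0.16. Region 3 (chr22:42251862-42256572) had 22.7, 27.01 and 36.8 with control siRNA, was uncalled in NRF2 siRNA replicate 1 and had 7.18 and 21.8 in replicates 2 and 3, with a change of -0.47 ± 0.21 (limma adjusted p = 0.225). The called NRF2 siRNA values of region 3 lay below every control value.

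INSIG1, the sterol-sensing brake on SREBP processing, had a start region (region 2, chr7:155088233-155092234) at 75.7, 88.4 and 94.7 with control siRNA and 76.2, 88.8 and 92.6 with NRF2 siRNA. The values of same-numbered libraries were close and the spread between replicates was wide. The change was 0.00 ± 0.23 (limma adjusted p = 0.993). A weak upstream region (region 1, chr7:155082448-155083620) was called at 8.37 and 32.0 in control replicates 1 and 2 and at 37.9 and 23.3 in NRF2 siRNA replicates 2 and 3. Which libraries called it differed between the pairs, and its change of 0.32 ± 0.44 did not pass (limma adjusted p = 0.729).

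ACLY, which supplies cytosolic acetyl-CoA, the substrate of fatty acid synthesis and of histone acetylation, held regions with changes of opposite sign. The broad region at its canonical start (region 2, chr17:40057327-40077177), 19851 bp wide and wider than 99.0% of merged regions, ranked at 92.9, 94.8 and 96.7 with control siRNA and at 98.5, 97.5 and 97.6 with NRF2 siRNA. By the strongest peak anywhere in the region, all NRF2 siRNA libraries lay above all controls. The difference of mean percentiles was 3.10 (exact permutation p = 0.1). The score change, the largest positive one among the members, was 0.41 ± 0.21, with 0.72, 0.33 and 0.19 in pairs 1 to 3, and did not pass (limma adjusted p = 0.275, or 0.205 with the replicate block).

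Peak shape in that ACLY region differed between libraries. NRF2 siRNA replicate 1 had 3 separate peaks covering 11.4 kb, the strongest 6098 to 13262 bases downstream of the start. The peak over the start in that library ranked at 89.5, below every control value, so the separation did not hold at the start itself. The other 5 libraries had 1 or 2 peaks covering 16.4 to 19.8 kb, with the strongest spanning the start. Further into the gene, over coding exons (region 3, chr17:40046309-40055865), percentiles were 51.9, 55.4 and 61.1 with control siRNA and 55.3, 67.3 and 78.0 with NRF2 siRNA. Each NRF2 siRNA library was above its same-numbered control, the percentiles of the groups overlapped while the scores did not, and the change was 0.39 ± 0.20 (limma adjusted p = 0.283).

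The upstream ACLY start showed the opposite pattern. This region (region 1, chr17:40085113-40087225) also holds the start of ODAD4, a gene of the outer dynein arm docking complex, whose start lies 75 bp from that of ACLY, so the acetylation cannot be assigned to either gene alone. Percentiles were 67.0, 70.9 and 71.9 with control siRNA and 4.92, 40.9 and 52.9 with NRF2 siRNA. Every NRF2 siRNA library was below every control, with a difference of means of -37.004 (exact permutation p = 0.1). The score change was -0.70 ± 0.19, with -0.83, -0.77 and -0.50 in pairs 1 to 3, and it passed with the replicate block (limma adjusted p = 0.0482) but not without it (0.0702). A region beyond the gene end that holds the KLHL11 start (region 4) had a change of -0.33.

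ACACA, the committed step of fatty acid synthesis, was the member whose tested regions were all lower, 5 of 5 with a median change of -0.60. The region at its canonical start (region 1, chr17:35765608-35768298) is shared with TADA2A, an adaptor subunit of histone acetyltransferase complexes, whose start is 50 bp away. Percentiles were 90.7, 91.1 and 93.4 with control siRNA and 63.1, 75.9 and 78.5 with NRF2 siRNA. The controls were tightly grouped and all NRF2 siRNA libraries lay below them, with a difference of means of -19.2 (exact permutation p = 0.1). The score change was -0.70 ± 0.19, with -0.74, -0.65 and -0.71 in the pairs, and it passed with the replicate block (limma adjusted p = 0.0424) but not without it (0.0641).

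The internal ACACA start, which holds most of the gene's coding transcript starts (region 2, chr17:35714268-35718961), had 78.3, 88.6 and 92.6 with control siRNA and 78.1, 81.6 and 88.3 with NRF2 siRNA. These groups overlapped, with a change of -0.14 ± 0.20 (limma adjusted p = 0.746). A coding-exon region (region 3, chr17:35632610-35634200) was called in all 3 controls at 46.5, 11.4 and 47.6 and in 0 NRF2 siRNA libraries. Its change of -1.10 ± 0.37, the largest negative one among the members, passed with the replicate block (limma adjusted p = 0.0247) but not without it (0.119). Every NRF2 siRNA score of this region is the tied lowest rank of its library. The scores of the groups overlapped, with control replicate 2 at -0.996 below NRF2 siRNA replicate 1 at -0.840. An intronic region (region 4, chr17:35503792-35505787) had 35.2, 38.2 and 37.3 with control siRNA and, with NRF2 siRNA, no call in replicate 1 and 7.17 and 26.0 in replicates 2 and 3. Its change was -0.60 ± 0.23 (limma adjusted p = 0.160). A region beyond the gene end (region 6) had a change of -0.52, and region 5 was called in control replicate 3 alone. The lift of the ACACA annotation to GRCh37 is partial, so further exons may lie outside the span used.

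**Figure D3:**
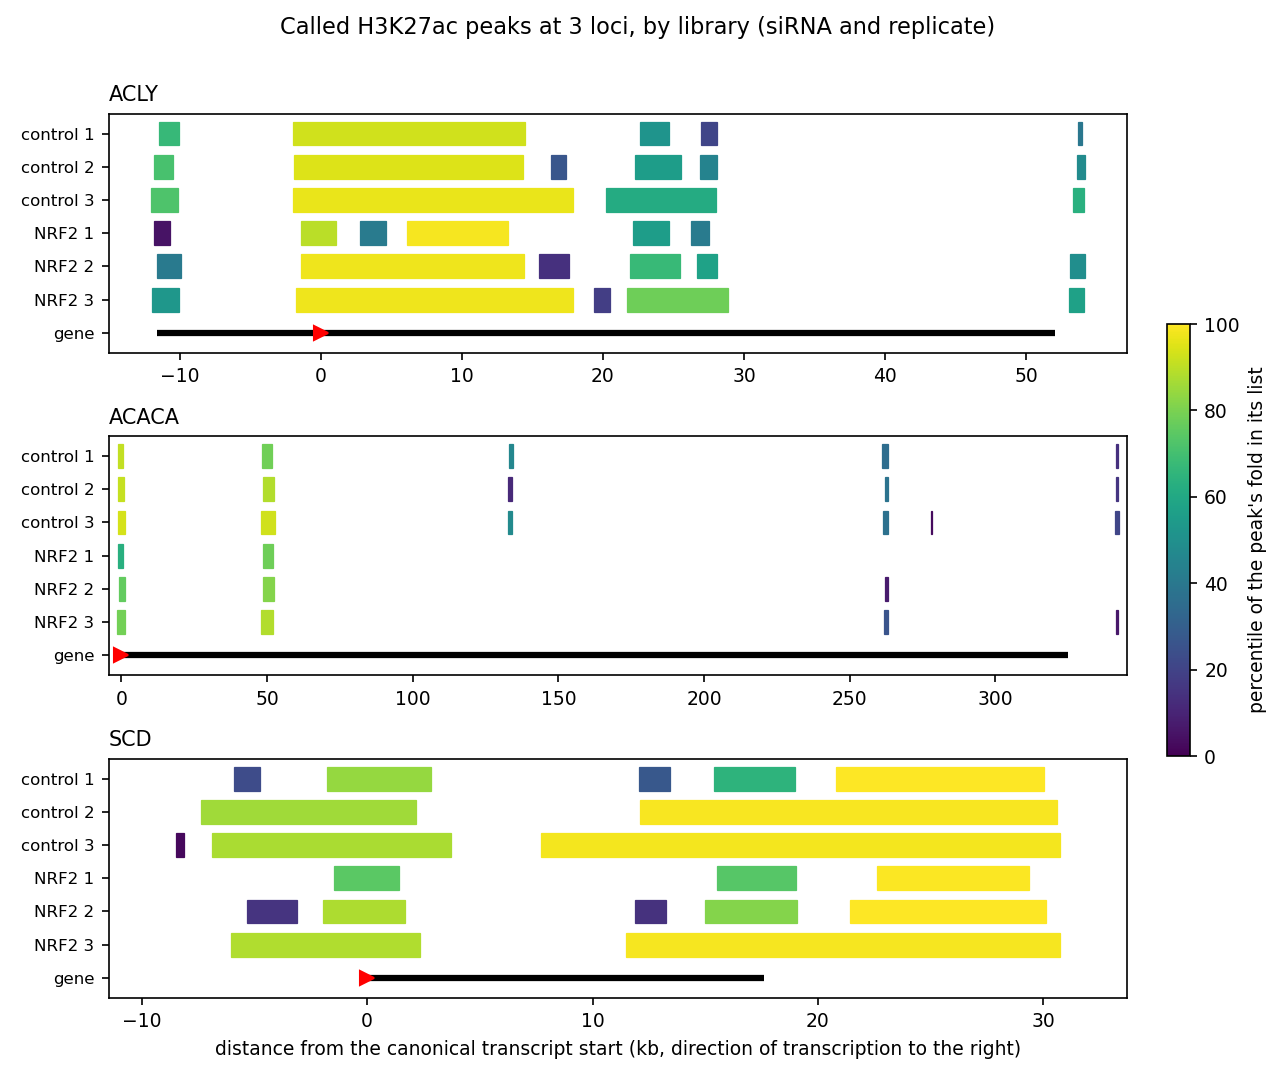
Called peaks around ACLY, ACACA and SCD by library (rows), placed by distance from the canonical transcript start (x axis, kb) and coloured by the percentile of the peak's fold enrichment in its list. Black bars are gene spans and red arrowheads the canonical starts, and the ACACA coding-exon peak is seen in the 3 control rows alone.

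FASN, which builds palmitate, did not pass in either direction. The start region (region 3, chr17:80053329-80061075) also holds a CCDC57 start 3556 bp away. It ranked at 81.6, 85.8 and 90.9 with control siRNA and at 60.6, 76.5 and 82.7 with NRF2 siRNA. The percentile of NRF2 siRNA replicate 3 lay within the control range, while the scores of the groups did not overlap, and each NRF2 siRNA library was below its same-numbered control. The score change was -0.38 ± 0.19, with -0.40, -0.35 and -0.37 in the pairs (limma adjusted p = 0.288, or 0.201 with the replicate block). The upstream regions 1 and 2, both within CCDC57, had changes of -0.09 and 0.00, and region 4, at the DUS1L start, was called in control replicate 3 alone.

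ELOVL6, the elongase of palmitate, had a start region (region 1, chr4:111113783-111120872) at 71.5, 82.4 and 89.4 with control siRNA and 66.9, 75.0 and 83.8 with NRF2 siRNA. The groups overlapped and the change was -0.15 ± 0.20 (limma adjusted p = 0.715). An intronic region (region 5, chr4:111027002-111029059) separated the groups, with 76.8, 59.5 and 67.6 against 39.8, 49.2 and 48.2 and a difference of means of -22.3 (exact permutation p = 0.1). On the score scale the groups overlapped and its change of -0.46 ± 0.26 did not pass (limma adjusted p = 0.339). The other tested intronic regions, 3 and 4, had changes of -0.07 and 0.12. Region 4 was uncalled in both libraries of replicate 1, and its change was 0.06 with pairs 2 and 3 alone. Intronic region 6 was called in NRF2 siRNA replicates 2 and 3, at 47.5 and 14.1, and in 0 controls, intronic region 2 in NRF2 siRNA replicate 1 alone, and region 7 in control replicate 3 alone.

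SCD, the desaturase, had its strongest acetylation in a broad region that reaches from inside the gene past its end, the region with the highest mean control percentile among the members (99.1 ± 0.70, SD, n = 3). Its start region (region 2, chr10:102099618-102110698) ranked at 84.2, 85.7 and 87.5 with control siRNA and at 74.5, 87.7 and 88.1 with NRF2 siRNA. NRF2 siRNA replicate 1 was below the controls and replicates 2 and 3 were above them, with a change of -0.0045 ± 0.19 (limma adjusted p = 0.993). The region over its last exons, 3′ UTR and the sequence beyond (region 3, chr10:102114699-102137713), 23015 bp wide, ranked at 99.8, 99.0 and 98.4 with control siRNA and 99.6, 99.9 and 98.7 with NRF2 siRNA. Its percentile was at least 98.4 in every library, and its change was 0.22 ± 0.31 (limma adjusted p = 0.730). In control replicate 1 and NRF2 siRNA replicates 1 and 2 the strongest peak began 20.8, 22.6 and 21.4 kb from the start. These peaks lay wholly past the gene end at 17.6 kb. The peaks over the gene end ranked at 64.7, 73.7 and 81.6 in the same libraries. Region 1, upstream, was called in control replicate 3 alone.

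**Figure D4:**
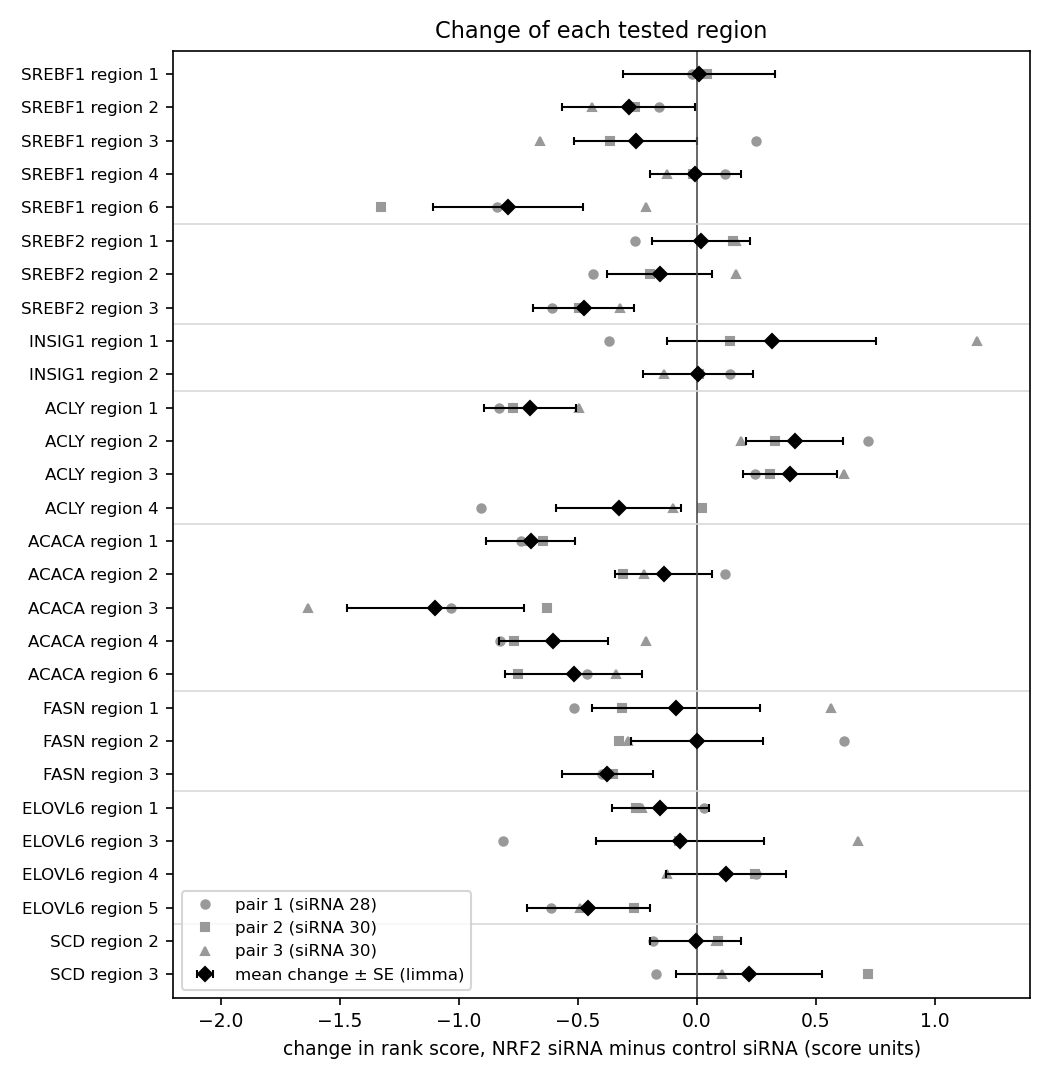
Change in rank score, NRF2 siRNA minus control siRNA (x axis, score units), of the 28 tested regions (y axis), with diamonds and bars for the mean and its SE from limma and grey circles, squares and triangles for pairs 1 (siRNA 28), 2 and 3 (siRNA 30). ACACA regions all lie left of 0, and ACLY regions 1 and 2 lie on opposite sides at -0.70 and 0.41.

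Of the length covered by peaks, 0.149, 0.137 and 0.127% lay in the members' windows in control replicates 1 to 3 and 0.147, 0.118 and 0.121% in NRF2 siRNA replicates 1 to 3. The NRF2 siRNA value was lower in each pair. The means were 0.138 ± 0.0112% and 0.128 ± 0.0159% (SD, n = 3). The exact permutation test gave p = 0.5 for unpaired libraries and p = 0.25 for pairs, the smallest possible with 3 pairs. The difference of the means, -0.0091 percentage points, became -0.0033 without control replicate 1 and -0.0182 without NRF2 siRNA replicate 1.

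Other genes of the pathway, a list of 46 genes of cholesterol and fatty acid synthesis and SREBP control, gave 139 regions and 101 tested ones. Of these, 1 rose and 0 fell by limma, where 2.01% and 3.39% of all tested regions did. By score, 57 changes were below 0 and 44 above 0, with a median of -0.05. The region that rose lies over coding exons of ACSS2, which makes acetyl-CoA from acetate (chr20:33494259-33497213), at 49.2, 71.4 and 71.95 with control siRNA and 88.8, 89.8 and 88.2 with NRF2 siRNA. Each NRF2 siRNA library was above each control, and the change was 0.86 ± 0.21 (limma adjusted p = 0.0453, or 0.0298 with the replicate block). The call was lost when any library other than NRF2 siRNA replicate 1 was left out.

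With the replicate block, 3 of the 101 fell and 2 rose, where 6.62% and 5.72% of all tested regions did. Those that fell included a start of ACACB, the mitochondrial acetyl-CoA carboxylase (-0.94, limma adjusted p = 0.0370), and a region upstream of ACAT2 (-0.74, 0.0431). Besides ACSS2, a region downstream of FDPS that holds the RUSC1 start rose (0.76, 0.0494). The start of HMGCS1, which makes HMG-CoA for cholesterol synthesis, had a change of 0.18 (limma adjusted p = 0.732).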

How the data were processed

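Chromatin of A549 cells was precipitated with an anti-H3K27ac antibody and sequenced as single-end reads. The authors aligned reads to hg19 with Bowtie2 2.2.6, used SAMTools to remove reads with low mapping quality, called peaks in each library with MACS2 2.1.0.20151222 and dropped peaks in the ENCODE blacklist. Whether an input served as background is not given in the sources used here, and the 2 input samples were not analysed here. Each deposited list gives, per peak, a score, the fold enrichment as a ratio, and p and q as −log10 values (the smallest −log10 q was 1.01 to 1.02). The fold was used for ranks and the q-value for an alternative. The lists hold no counts per peak, so no counting interval could be given. The study states read totals for each library, lowest in replicate 1 of both groups.

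Regions (1 bp overlap), windows (20 kb) and genes (GENCODE on GRCh37, the build of the files) were set as described above. Scores of 32673 regions in at least 3 libraries were compared with limma 3.58.1 in R 4.3.3 (lmFit, eBayes, Benjamini-Hochberg, threshold 0.05), checked on simulated scores. Single values were compared by two-sided exact permutation tests in scipy 1.17.1. Sequences were read from GRCh37 with pysam 0.24.0. Same-numbered libraries deviated together (r = 0.398, 0.199 and 0.363 for pairs 1 to 3, numbers from the sample titles). Libraries with different numbers were not compared in this way, so these values do not show that the numbers mark pairs. The replicate block was an alternative. Others were equal list lengths (the 23885 strongest peaks), a q-value of at most 1e-05, merging within 1 kb, at least 50% cover, windows of 0, 5 and 100 kb, other filters and leaving out each library. Named regions were each member's start region (the one with most coding transcript starts), the 5 largest mean rises and falls and regions past the threshold, 17 in all. Other regions are given only where a locus is walked through, and their alternatives were not run one by one. Members, lists, motifs and these rules were chosen with earlier results of these data known. Some items of these lists are not reported here.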

Additional observations from a re-analysis of the deposited data

Results flagged for a closer look

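Among the 17 regions chosen as start regions or for the largest changes, 6 had values in which the pair with siRNA 28 changed in the direction opposite to both pairs with siRNA 30. The values are the score change of pair 1 minus the mean of pairs 2 and 3. At starts this difference was -0.42 for SREBF2 region 1, 0.38 for ACACA region 2, 0.28 for ELOVL6 region 1 and -0.27 for SCD region 2, and elsewhere it was -1.03 for INSIG1 region 1 and -0.58 for SCD region 3. In limma's test of the difference the adjusted p values of these 6 regions ran from 0.392 to 0.687, with 1 library pair for siRNA 28, and 0 of all tested regions passed. Pair 1 opposed both others in 21.9% of all tested regions. The flow cell identifiers in the peak names divide the pairs in the same way, and siRNA and sequencing cannot be told apart.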

How the results depend on the processing

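No alternative gave a member region that passed as a rise. The count of member regions that fell was 3 of 28 with the replicate block, 2 of 19 with equal list lengths and 2 of 17 with regions called in all 6 libraries. It was 1 of 28 with trend and robust options and with pairs 2 and 3 alone. A q-value of at most 1e-05 gave 1 of 18, the 100 kb window 1 of 64, and leaving out 1 library 0 to 1 of 28. ACACA region 1 passed under 5 of these settings and ACLY region 1 under 3. Shares of all regions passing are given only for the main fit and the replicate block. The median change was -0.0063 at the stricter q-value and -0.23 to -0.090 when 1 library was left out. Among other pathway genes, the count that fell was 4 of 219 in the 100 kb window, 3 of 101 with the replicate block and 3 of 87 with equal lengths. It was 2 of 101 with trend, 2 of 66 at the stricter q-value and 1 of 101 with pairs 2 and 3. In regions called in all 6 it was 1 of 72, and without 1 library 0 to 1 of 101. The count that rose was 4 of 87 with equal lengths, 2 of 101 with the replicate block and with trend and 2 of 219 at 100 kb. It was 0 of 89 at 50% cover, 0 of 139 with regions called in at least 1 library and 0 to 1 of 101 without 1 library.

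Of 257 alternative values of the 17 regions chosen by rule, 231 stayed on their side of 0 and of the threshold, 11 passed it newly and 15 turned sign. INSIG1 region 2 turned to -0.063 with pairs 2 and 3 and -0.0013 in regions called in all 6, SCD region 2 to 0.085 with pairs 2 and 3, and at 50% cover SCD region 3 to -0.81 and ELOVL6 region 4 to -0.18. Leaving out 1 library gave -0.080 to 0.11 for SREBF2 region 1, -0.15 to 0.16 for INSIG1 region 2, -0.046 to 0.047 for SCD region 2, -0.25 to 0.61 for INSIG1 region 1, 0.03 to 0.47 for SCD region 3, -0.062 to 0.25 for ELOVL6 region 4, -0.51 to -0.059 for SREBF1 region 2, -0.25 to -0.055 for ACACA region 2 and -0.24 to -0.061 for ELOVL6 region 1. The replicate block changed no call of a named region other than those given above. INSIG1 region 1, ELOVL6 region 4, ACACA regions 3 and 4 and SREBF1 region 6 had no value under several stricter filters, since too few libraries remained. The causes were not tested.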
